A study of Mus musculus with 12 samples.

Results

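The 10 genes Cdk1, Ccna2, Ccnb1, Ccnb2, Bub1, Bub1b, Mad2l1, Aurka, Plk1 and Kif11 encode the kinase, cyclins, spindle assembly checkpoint proteins and spindle motor that drive a cell through mitosis. They were chosen by name, with earlier results of these same livers in view, and all 10 have a row among the 51609 gene rows of the count table. All 10 also passed the filter on low counts that left 17652 genes to test. Since the choice was made knowing how these genes behaved, their fold changes and calls below are a description, and how many of them passed a threshold carries no evidence of its own.

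The study asked how hepatocyte Rela and Stat3, the transcription factors of the NF-κB and gp130 signalling pathways, shape the liver during colitis. RNA was sequenced from whole livers of C57BL/6 mice aged 5 to 7 weeks, with 3 mice in each of 4 groups. Wild-type mice, which were Cre-negative littermates with floxed Rela and Stat3, and mice labelled RelaΔhepStat3Δhep were either kept on water or given 2% dextran sodium sulfate (DSS), which injures the colon epithelium, in their drinking water for 6 days. In the RelaΔhepStat3Δhep mice both floxed genes are deleted by Cre recombinase under the albumin promoter, so the deletion is limited to hepatocytes and both genes remain in the other cells of the liver.

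The libraries held 65879529 to 82850098 estimated counts, and the members had 14 to 756 counts in a library. Levels are given as CPM, counts scaled to a common library size with the trimmed mean of M-values. Hepatocyte marker genes summed to 117500 to 190800 CPM in the 12 libraries. Rela measured over the whole gene stood at 39.5 to 62.3 CPM in the 6 libraries labelled RelaΔhepStat3Δhep and at 39.8 to 55.5 CPM in the wild-type libraries, and Stat3 at 43.0 to 74.8 CPM against 45.7 to 329.5 CPM. The Rela level therefore does not check the genotype labels, and exons inside and outside the deletion were not counted apart. Untreated wild-type liver 1 (45.7 CPM) and DSS-treated wild-type liver 1 (63.2 CPM) lay within the RelaΔhepStat3Δhep range of Stat3. The other DSS-treated wild-type livers were at 307.3 and 329.5 CPM.

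Sex-linked transcripts split the libraries in a way that touches every comparison. Xist, the RNA of the inactive X chromosome, was at 903 to 1283 CPM in all 3 DSS-treated RelaΔhepStat3Δhep livers and at 1143 CPM in untreated wild-type liver 3, and at or below 29.0 CPM in the other 8. The Y-linked genes Ddx3y, Uty, Kdm5d and Eif2s3y summed to at most 0.12 CPM in the DSS-treated RelaΔhepStat3Δhep livers, to 175 to 241 CPM in the 8 livers with low Xist, and to 30.1 CPM in untreated wild-type liver 3, which carried both kinds of transcript. Whether RNA of more than 1 mouse is in that library was not tested. The wild-type DSS response of each member is given with and without that liver below. The medians of the members and of the mitosis, replication and G1 lists are also given without it where a comparison uses it. Medians of the cell type markers are given with it only. The 4 livers with high Xist are not spread over the groups, so sex and DSS treatment cannot be told apart in the RelaΔhepStat3Δhep mice. For the same reason sex and genotype cannot be told apart among the DSS-treated mice. The labels do not give the sex of each mouse.

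As background, Cdk1 is the kinase that starts mitosis once it is bound to cyclin A or cyclin B and freed of inhibitory phosphate. Aurka and Plk1 help to switch it on and build the spindle poles, and Kif11, a kinesin, pushes the poles apart. Bub1, Bub1b (BubR1) and Mad2l1 (Mad2) sit at kinetochores that lack microtubules and hold back the anaphase-promoting complex until every chromosome is attached. Their transcripts accumulate in the G2 and M phases of the cell cycle and are scarce in resting cells. Most hepatocytes of an adult liver rest outside the cycle, and whole liver also contains Kupffer cells, endothelial cells and lymphocytes that may divide.

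Genes of this kind are known to share promoter elements, the CCAAT box bound by NF-Y and the cell cycle homology region (CHR). The sequence just before the start site is shown for 4 of the members as examples. RefSeq promoter windows of build GRCm38.p6, from 250 bases before the gene's start to 50 bases after it, matched 9 of the 10 members, and Ccna2 had no entry. The letters searched on both strands were CCAAT, the CHR hexamer TTTGAA and the related TTTAAA, and no match overlapped another in a member. Capitals below mark these letters or their reverse complements in the 120 bases before the start, 5′ to 3′ on the strand of the gene. The windows are chr10:69352913-69353032 (minus strand) for Cdk1, chr13:100786487-100786606 (minus) for Ccnb1, chr9:70421555-70421674 (minus) for Ccnb2 and chr19:37376262-37376381 (plus) for Kif11.
Cdk1: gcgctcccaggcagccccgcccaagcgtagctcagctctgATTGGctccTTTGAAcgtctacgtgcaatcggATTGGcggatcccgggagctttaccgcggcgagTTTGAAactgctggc
Ccnb1: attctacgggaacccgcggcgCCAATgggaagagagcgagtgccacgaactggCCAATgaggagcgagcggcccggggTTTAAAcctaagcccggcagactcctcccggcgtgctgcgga
Ccnb2: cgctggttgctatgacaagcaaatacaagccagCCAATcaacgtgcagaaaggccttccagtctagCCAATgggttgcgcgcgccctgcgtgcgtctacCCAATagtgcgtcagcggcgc
Kif11: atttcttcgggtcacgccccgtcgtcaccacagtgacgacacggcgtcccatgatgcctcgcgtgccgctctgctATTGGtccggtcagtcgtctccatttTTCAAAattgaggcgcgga

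CCAAT was found in 8 of the 9 member windows and in 37.4% of all 32851 promoter windows of that length. It occurred 2 or more times in 5 members, Cdk1, Ccnb1, Ccnb2, Bub1 and Aurka, against 11.7% of all windows. Cdk1 carried it 208, 80 and 48 bases before the start, Ccnb1 99 and 67 bases before it, and Ccnb2 87, 54 and 21 bases before it, so in these 3 genes the copies nearest the start lie 32 or 33 bases apart. The spacing was also 32 bases in Aurka and was 26 bases in Bub1. TTTGAA was found in 6 of the 9 members (Cdk1, Ccnb2, Bub1b, Aurka, Plk1 and Kif11) and in 17.9% of all windows, and TTTAAA in 3 of 9 (Ccnb1, Aurka and Plk1) and in 13.2%. The window of Mad2l1 held none of these letters. These matches describe the windows, and binding was not measured.

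Summed over the 10 members, the level in the livers differed by group. The sums were 30.6, 27.9 and 61.6 CPM in untreated wild-type livers, 23.6, 14.5 and 19.6 CPM in DSS-treated wild-type livers, 14.2, 12.3 and 16.2 CPM in untreated RelaΔhepStat3Δhep livers, and 48.1, 20.2 and 31.3 CPM in DSS-treated RelaΔhepStat3Δhep livers. Every untreated wild-type liver stood above every DSS-treated wild-type liver, and every DSS-treated RelaΔhepStat3Δhep liver stood above every untreated one. All 10 members had their lowest group mean in untreated RelaΔhepStat3Δhep livers and the next lowest in DSS-treated wild-type livers. The highest mean was in untreated wild-type livers for 8 members and in DSS-treated RelaΔhepStat3Δhep livers for Bub1 and Mad2l1. That top place rested on untreated wild-type liver 3. Without it DSS-treated RelaΔhepStat3Δhep livers had the highest mean for 8 members and untreated wild-type livers for Ccnb2 and Aurka, and the lowest and next lowest groups were as before for all 10.

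The spread within groups was uneven. Untreated wild-type liver 3 had the highest value of all 12 livers for 8 members, and DSS-treated RelaΔhepStat3Δhep liver 1 for the other 2, Bub1b and Mad2l1. The summed level in the 4 livers with high Xist ran from 20.2 to 61.6 CPM and in the other 8 from 12.3 to 30.6 CPM. The standard deviation of the sum was 18.7 and 14.1 CPM in the 2 groups that hold high-Xist livers, and 4.60 and 1.93 CPM in DSS-treated wild-type and untreated RelaΔhepStat3Δhep livers. The part of sex in these levels was not tested apart from the adjusted fit given below.

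**Figure D1:**
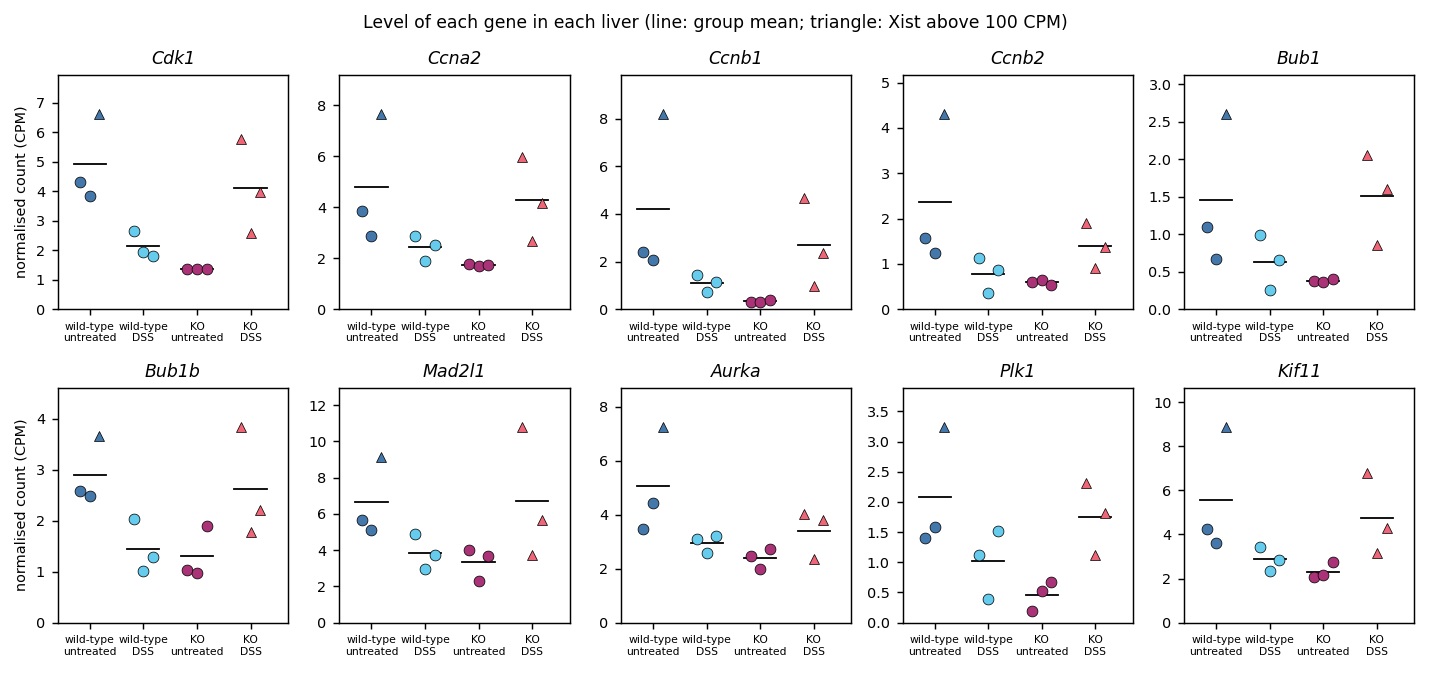
Level in CPM (linear axis from 0) of each of the 10 genes in each of the 12 livers, with a black line at the mean of the 3 livers of a group and triangles for the 4 livers with Xist above 100 CPM. KO stands for RelaΔhepStat3Δhep. Untreated KO livers sit lowest on average in every panel, and untreated wild-type liver 3 is the highest point in 8 of 10.

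Cdk1 (ENSMUSG00000019942, mm9 chr10:68799383-68815686, minus strand) showed the steadiest low level of the set. It was at 4.33, 3.84 and 6.64 CPM in untreated wild-type livers and at 2.64, 1.94 and 1.82 CPM after DSS. In RelaΔhepStat3Δhep livers it was at 1.37, 1.37 and 1.36 CPM untreated and at 5.78, 2.57 and 3.97 CPM after DSS. Neither genotype's DSS-treated and untreated livers overlapped. The log2 fold change with DSS was −1.21 ± 0.30 (SE) in wild-type mice (−0.94 ± 0.31 without untreated liver 3) and 1.59 ± 0.31 in RelaΔhepStat3Δhep mice, a 3.00-fold higher level.

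The cyclins bind and activate Cdk1. Ccna2 (cyclin A2, which acts from S phase into early mitosis; ENSMUSG00000027715, mm9 chr3:36463788-36471072, minus strand) was at 3.87, 2.88 and 7.66 CPM in untreated and at 2.88, 1.90 and 2.51 CPM in DSS-treated wild-type livers, so that the closest livers of the groups nearly met. It was at 1.78, 1.70 and 1.73 CPM in untreated and at 5.96, 2.68 and 4.18 CPM in DSS-treated RelaΔhepStat3Δhep livers. These groups were separate, and the log2 fold change with DSS was −0.98 ± 0.36 in wild-type (−0.48 ± 0.32 without untreated liver 3) and 1.30 ± 0.36 in RelaΔhepStat3Δhep mice. Ccna2 shares 512 exonic bases with Exosc9, a subunit of the RNA exosome transcribed from the opposite strand, and the sources used here do not say whether strand was used in counting, so their reads may be mixed. Exosc9 itself was at 5.62 to 7.02 CPM in untreated and at 9.16 to 11.4 CPM in DSS-treated RelaΔhepStat3Δhep livers, and rose (log2 fold change 0.71 ± 0.15, edgeR adjusted p = 0.0170).

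Ccnb1 (cyclin B1, the main mitotic partner of Cdk1; ENSMUSG00000041431, mm9 chr13:101548605-101556525, minus strand) had the widest range as a ratio of its highest to its lowest liver. It was at 2.38, 2.05 and 8.21 CPM in untreated and at 1.43, 0.716 and 1.14 CPM in DSS-treated wild-type livers. In RelaΔhepStat3Δhep livers it was at 0.306, 0.290 and 0.391 CPM untreated, which rests on 23, 21 and 29 counts, and at 4.67, 0.994 and 2.37 CPM after DSS. The DSS-treated livers stood apart from the untreated ones in both genotypes, below them in wild-type mice (log2 fold change −1.94 ± 0.60, or −1.02 ± 0.51 without untreated liver 3) and above them in RelaΔhepStat3Δhep mice (3.02 ± 0.64). Its values are uncertain because 3 other loci of mm9 match up to 1858 bases of its transcript at up to 99.1% identity, and the 2 genes counted there, Gm12856 and Gm5593, hold 350 counts against 1750 for Ccnb1. With those counts added, the group means of Ccnb1 were 4.97 ± 4.02 (SD, n = 3) and 1.41 ± 0.328 CPM in untreated and DSS-treated wild-type livers, and 0.495 ± 0.145 and 3.09 ± 1.85 CPM in the RelaΔhepStat3Δhep livers.

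Ccnb2 (cyclin B2; ENSMUSG00000032218, mm9 chr9:70255496-70269361, minus strand) was at 1.57, 1.24 and 4.31 CPM in untreated and at 1.13, 0.350 and 0.858 CPM in DSS-treated wild-type livers. It was at 0.598, 0.648 and 0.540 CPM in untreated and at 1.90, 0.910 and 1.37 CPM in DSS-treated RelaΔhepStat3Δhep livers. Both pairs of groups were again separate, with log2 fold changes of −1.60 ± 0.51 and 1.22 ± 0.51, the first being −0.85 ± 0.45 without untreated wild-type liver 3.

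The checkpoint genes were lowest on average in untreated RelaΔhepStat3Δhep livers as well. Bub1 (a kinetochore kinase; ENSMUSG00000027379, mm9 chr2:127626858-127657601, minus strand) was at 1.09, 0.670 and 2.61 CPM in untreated and at 0.992, 0.255 and 0.651 CPM in DSS-treated wild-type livers, which overlapped. It was at 0.372, 0.359 and 0.405 CPM in untreated and at 2.05, 0.862 and 1.61 CPM in DSS-treated RelaΔhepStat3Δhep livers, which did not. The log2 fold changes with DSS were −1.20 ± 0.55 and 1.99 ± 0.56, the first being −0.47 ± 0.52 without untreated wild-type liver 3.

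Bub1b (ENSMUSG00000040084, mm9 chr2:118423947-118467328, plus strand), which inhibits the anaphase-promoting complex, was at 2.58, 2.47 and 3.65 CPM in untreated and at 2.04, 1.00 and 1.29 CPM in DSS-treated wild-type livers. It was at 1.04, 0.980 and 1.90 CPM in untreated and at 3.84, 1.78 and 2.22 CPM in DSS-treated RelaΔhepStat3Δhep livers, where untreated liver 3 reached into the range of the treated ones. The log2 fold changes were −1.004 ± 0.38 and 0.998 ± 0.38, the first being −0.81 ± 0.41 without untreated wild-type liver 3.

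Mad2l1 (ENSMUSG00000029910, mm9 chr6:66485384-66491027, plus strand), which holds the activator Cdc20 in an inactive complex, was at 5.68, 5.11 and 9.11 CPM in untreated and at 4.91, 2.95 and 3.71 CPM in DSS-treated wild-type livers. It was at 3.99, 2.30 and 3.67 CPM in untreated and at 10.8, 3.71 and 5.67 CPM in DSS-treated RelaΔhepStat3Δhep livers, where DSS-treated liver 2 lay within the untreated range. The log2 fold changes were −0.78 ± 0.37 and 1.02 ± 0.37, the first being −0.49 ± 0.39 without untreated wild-type liver 3.

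Among the members, Aurka had the smallest fold change with DSS in both genotypes. Aurka (Aurora A, a spindle pole kinase; ENSMUSG00000027496, mm9 chr2:172181690-172196035, minus strand) was at 3.49, 4.43 and 7.26 CPM in untreated and at 3.10, 2.60 and 3.20 CPM in DSS-treated wild-type livers. It was at 2.49, 2.00 and 2.74 CPM in untreated and at 4.02, 2.37 and 3.82 CPM in DSS-treated RelaΔhepStat3Δhep livers, which overlapped. The log2 fold changes were −0.77 ± 0.29 and 0.50 ± 0.29, the first being −0.42 ± 0.27 without untreated wild-type liver 3.

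Plk1 (polo-like kinase 1; ENSMUSG00000030867, mm9 chr7:129302951-129313389, plus strand) was at 1.41, 1.59 and 3.24 CPM in untreated and at 1.12, 0.398 and 1.52 CPM in DSS-treated wild-type livers, and those groups overlapped. It was at 0.186, 0.524 and 0.675 CPM in untreated and at 2.31, 1.13 and 1.81 CPM in DSS-treated RelaΔhepStat3Δhep livers, which were separate. The lowest of these values rests on 14 counts. The log2 fold changes were −1.03 ± 0.54 and 1.92 ± 0.56, the first being −0.56 ± 0.57 without untreated wild-type liver 3.

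Kif11 (the kinesin Eg5; ENSMUSG00000012443, mm9 chr19:37450893-37496349, plus strand) was at 4.24, 3.60 and 8.89 CPM in untreated and at 3.41, 2.36 and 2.85 CPM in DSS-treated wild-type livers. It was at 2.05, 2.14 and 2.75 CPM in untreated and at 6.81, 3.16 and 4.28 CPM in DSS-treated RelaΔhepStat3Δhep livers. Neither pair of groups overlapped, and the log2 fold changes were −0.95 ± 0.35 and 1.04 ± 0.35, the first being −0.45 ± 0.31 without untreated wild-type liver 3.

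Levels of different members can be set side by side only per length, as CPM per kilobase of exon. In untreated wild-type livers Mad2l1 was highest at 3.01 ± 0.982 (SD, n = 3), followed by Aurka at 2.00 ± 0.775, Ccnb2 at 1.54 ± 1.10, Cdk1 at 1.43 ± 0.434, Ccna2 at 1.37 ± 0.719, Kif11 at 1.16 ± 0.599, Ccnb1 at 0.999 ± 0.821, Plk1 at 0.944 ± 0.460, Bub1b at 0.678 ± 0.152 and Bub1 at 0.335 ± 0.234. The ranges of the 3 livers overlapped for every neighbouring pair of that order. In untreated RelaΔhepStat3Δhep livers Mad2l1 at 1.51 ± 0.406 and Aurka at 0.952 ± 0.148 stayed first, and Ccnb1 came last at 0.0780 ± 0.0130, with a range that overlapped that of Bub1 at 0.0870 ± 0.00546. There only Aurka and Ccna2 (0.494 ± 0.0121), and Kif11 (0.480 ± 0.0797) and Cdk1 (0.397 ± 0.000849), were neighbours in the order whose livers did not overlap.

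In wild-type mice, the comparison of DSS with water asks how the liver responded to colitis with both transcription factors present. All 10 members had negative log2 fold changes, from −1.94 (Ccnb1) to −0.77 (Aurka), with a median of −1.02 against 0.02 over all genes tested. For 8 members every treated liver lay below every untreated liver, against 9.21% of all genes. None of the 10 was called by edgeR's quasi-likelihood test, with adjusted p-values of 0.0868 (Cdk1) to 0.406 (Plk1), where edgeR called 0.232% of all genes lower. An unadjusted p under 0.05 was reached by 8 of 10 and by 14.5% of all genes in either direction, and DESeq2 called 3 members and 2.31% of all genes lower. Without untreated wild-type liver 3, the high-Xist liver of this genotype, all 10 fold changes remained negative, the median moved to −0.52 and the range to −1.02 to −0.42, and 8 members remained wholly below.

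In mice labelled RelaΔhepStat3Δhep the same comparison gave 10 positive log2 fold changes, from 0.50 (Aurka) to 3.02 (Ccnb1), with a median of 1.26 against −0.01 over all genes. For 7 members every treated liver lay above every untreated one, against 17.8% of all genes. Cdk1, Ccna2 and Ccnb1 were called higher by edgeR (adjusted p = 0.0115, 0.0487 and 0.0179), where 4.57% of all genes were called higher, and the other members had adjusted p-values from 0.0524 (Bub1) to 0.316 (Aurka). DESeq2 called 5 members and 8.23% of all genes higher. These calls depended on single livers. Without DSS-treated liver 1 all 10 remained higher (0.34 to 2.33, median 0.94) and none was called, none was called without untreated liver 2, and 1 was called without untreated liver 1 or untreated liver 3. The share of all genes called higher in these fits was 1.52%, 0.837%, 2.63% and 1.76%. Because all 3 treated livers had high Xist and all 3 untreated livers low Xist, these values carry both differences.

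**Figure D2:**
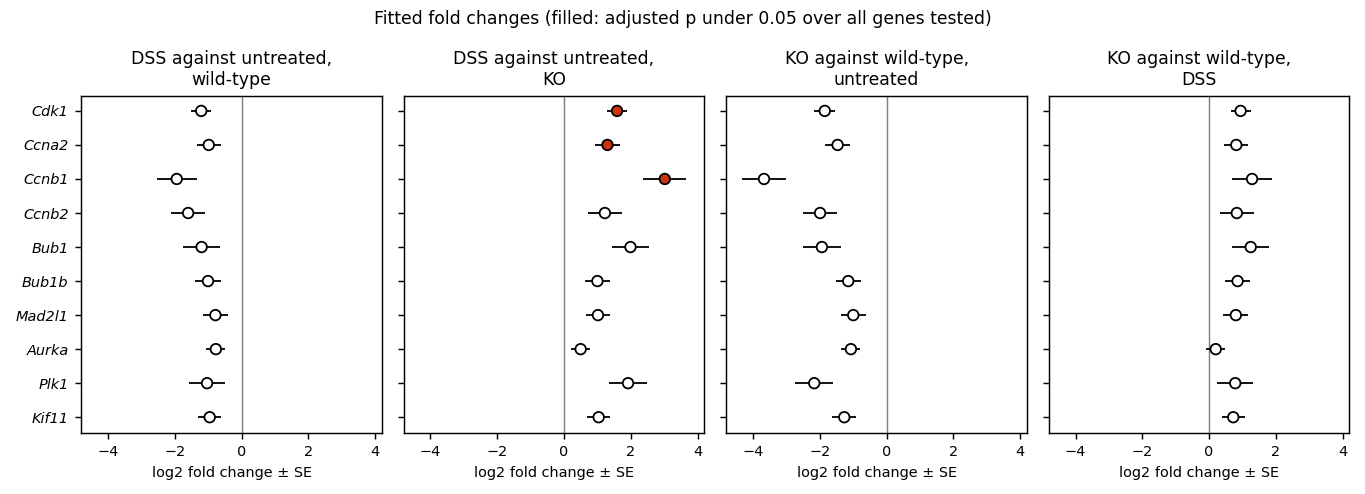
Log2 fold change with its standard error for each gene in the 4 pairwise comparisons, with filled points for an adjusted p under 0.05 over all 17652 genes. KO stands for RelaΔhepStat3Δhep. Points lie left of 0 for all 10 genes in the wild-type DSS and untreated genotype comparisons and right of 0 in the other pair, and the 3 filled points are Cdk1, Ccna2 and Ccnb1 in KO mice given DSS.

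Between untreated livers, which asks what the loss of hepatocyte Rela and Stat3 does without colitis, all 10 members were lower in RelaΔhepStat3Δhep mice. The log2 fold changes ran from −3.67 ± 0.66 (Ccnb1, a 12.7-fold lower level) through −2.17 ± 0.56 (Plk1), −1.99 ± 0.52 (Ccnb2) and −1.85 ± 0.31 (Cdk1) to −0.997 ± 0.37 (Mad2l1), with a median of −1.66. The groups were separate for all 10 members, against 10.7% of all genes that lay lower in this way. None was called by edgeR (adjusted p from 0.0649 to 0.336, with all 10 and 11.7% of all genes at an unadjusted p under 0.05), which called 0.0283% of all genes lower. DESeq2 called 8 members and 1.32% of all genes lower. Without untreated wild-type liver 3, whose level was the highest, all 10 stayed lower and separate, with log2 fold changes from −2.75 to −0.70 and a median of −1.09.

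After DSS the sign was the other way. All 10 members were higher in RelaΔhepStat3Δhep than in wild-type livers, by log2 fold changes from 0.20 ± 0.28 (Aurka) through 0.94 ± 0.30 (Cdk1) to 1.29 ± 0.59 (Ccnb1), with a median of 0.82. Without DSS-treated RelaΔhepStat3Δhep liver 1 they ran from 0.06 to 0.96 with a median of 0.52. The groups overlapped for every member, where 8.8% of all genes lay wholly higher. None was called by edgeR, where 0.187% of all genes were called higher, and 4 members (Cdk1, Ccna2, Bub1 and Bub1b) and 14.3% of all genes had an unadjusted p under 0.05. DESeq2 also called none, where it called 1.45% of all genes higher. The direction was not kept with the sex term described with the interaction, which turned 7 of the 10 fold changes negative (−0.79 to 0.32, median −0.35). These 2 genotype comparisons use the same livers as the 2 DSS comparisons, and their agreement in direction is not independent.

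The interaction, the DSS response of RelaΔhepStat3Δhep mice minus that of wild-type mice, was positive for all 10 members, with a median log2 difference of 2.54. Cdk1 (2.79 ± 0.43, adjusted p = 0.0150) and Ccnb1 (4.96 ± 0.88, adjusted p = 0.0431) were called by edgeR, where 0.244% of all genes were called higher, and the other 8 ranged from 1.27 ± 0.40 (Aurka) to 3.18 ± 0.79 (Bub1) with adjusted p-values from 0.0742 to 0.173. DESeq2 called 9 members and 2.51% of all genes higher. Without untreated wild-type liver 3 the median was 1.94 (0.92 to 4.04) and 1 member was called, where 30 of all genes were called in either direction. No member was called without untreated RelaΔhepStat3Δhep liver 1 or liver 2. With the high-Xist state added to the model as a covariate, a term that rests on untreated wild-type liver 3 alone, all 10 interactions remained positive (0.04 to 2.14, median 0.82) and none was called, nor was any of the 17652 genes called higher. In that fit the DSS response in wild-type mice stayed negative for all 10, and that in RelaΔhepStat3Δhep mice was positive for 7 and negative for 3 (Ccnb2, Aurka and Kif11).

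The levels of the members varied together from liver to liver. Over the 12 libraries the 45 pairs of members had Pearson correlations of log2 CPM from 0.797 (Bub1 and Aurka) to 0.983 (Ccna2 and Ccnb1), with a median of 0.905. After removal of the group means the range was 0.585 (Mad2l1 and Plk1) to 0.983 and the median 0.829, so the livers of a group also differed in common. The libraries share depth and group structure, and these values are a description.

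The 10 named genes whose pattern was most like the mean of the members, by correlation over the 12 libraries, were Cenpf (0.988), Prc1 (0.987), Aspm (0.987), Ckap2 (0.982), Tpx2 (0.979), Hmmr (0.979), C330027C09Rik (0.976), Ckap2l (0.973), Anln (0.970) and 4930547N16Rik (0.969). Of these, 8 are in a list of 88 further mitosis genes. Cenpf, a kinetochore protein, had group means of 7.52 CPM (untreated wild-type, 4.14 CPM without liver 3), 1.72 CPM (DSS-treated wild-type), 0.990 CPM (untreated RelaΔhepStat3Δhep) and 5.25 CPM (DSS-treated RelaΔhepStat3Δhep). The median correlation with the members was 0.875 over the mitosis list, 0.433 over genes of DNA replication and 0.059 over G1 regulators and CDK inhibitors, against −0.025 over all genes.

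Of the 88 further mitosis genes 81 had a row and were tested. In wild-type mice given DSS, 74 had negative and 7 positive log2 fold changes (median −1.04), and 2 were called, both lower (0.232% of all genes), Spc24 of the Ndc80 kinetochore complex (−1.31 ± 0.20, adjusted p = 0.0146) and Wee1, the kinase that inhibits Cdk1 (−1.52 ± 0.31, adjusted p = 0.0461). Without untreated wild-type liver 3, 69 were negative, the median was −0.49, and Spc24 stayed called (adjusted p = 0.0410) and Wee1 did not (−1.67 ± 0.33, adjusted p = 0.0751). In RelaΔhepStat3Δhep mice given DSS, 74 were positive and 7 negative (median 1.17), and 21 rose and 1 fell, against 4.57% and 2.46% of all genes. The largest rises were in Hmmr, a spindle-associated protein (3.05 ± 0.74, adjusted p = 0.0336), the kinetochore genes Knl1 (2.45 ± 0.54, adjusted p = 0.0207) and Cenpf (2.40 ± 0.59, adjusted p = 0.0336), and Cenpm (2.25 ± 0.61, adjusted p = 0.0431). Cdc20, the target of the checkpoint, rose as well (2.09 ± 0.49, adjusted p = 0.0262), as did the proliferation marker Mki67 (1.34 ± 0.32, adjusted p = 0.0292), both named after their values were seen.

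The only called fall in RelaΔhepStat3Δhep mice, Wee1, was lower after DSS in both genotypes. It was at 7.76, 9.13 and 6.02 CPM in untreated and at 2.78, 2.02 and 3.18 CPM in DSS-treated wild-type livers. In RelaΔhepStat3Δhep livers it was at 8.52, 20.4 and 11.6 CPM untreated and at 3.20, 3.22 and 2.15 CPM after DSS (log2 fold change −2.24 ± 0.31, adjusted p = 0.00239). Treated and untreated livers were separate in both genotypes, and 2.46% of all genes were called lower in the second of these comparisons. Spc24, called lower in wild-type mice, was also among the 7 negative genes of the list in RelaΔhepStat3Δhep mice. It was not called there (−0.52 ± 0.20, edgeR adjusted p = 0.132), and 74 genes of the list were positive.

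Between untreated livers no gene of the mitosis list was called (78 of 81 lower, 57 of them at an unadjusted p under 0.05, median −1.41), and after DSS none was called either (72 of 81 higher, 24 of them at an unadjusted p under 0.05, median 0.73). Over all genes 11.7% and 14.3% had an unadjusted p under 0.05 in these comparisons, in either direction. The interaction was called for 5, all positive, against 0.244% of all genes. The largest were Cenpf (4.53 ± 0.83), Cdc20 (3.95 ± 0.69), Ckap2l (3.37 ± 0.65) and Racgap1, which acts in cytokinesis (3.16 ± 0.51), with edgeR adjusted p-values from 0.0198 to 0.0481. Without untreated wild-type liver 3 none of the list was called in the interaction (75 of 81 positive, median 1.76), these 4 genes standing at 3.67, 3.41, 2.91 and 2.81 in that order, and the median between untreated livers was −0.94 with 75 of 81 lower.

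**Figure D3:**
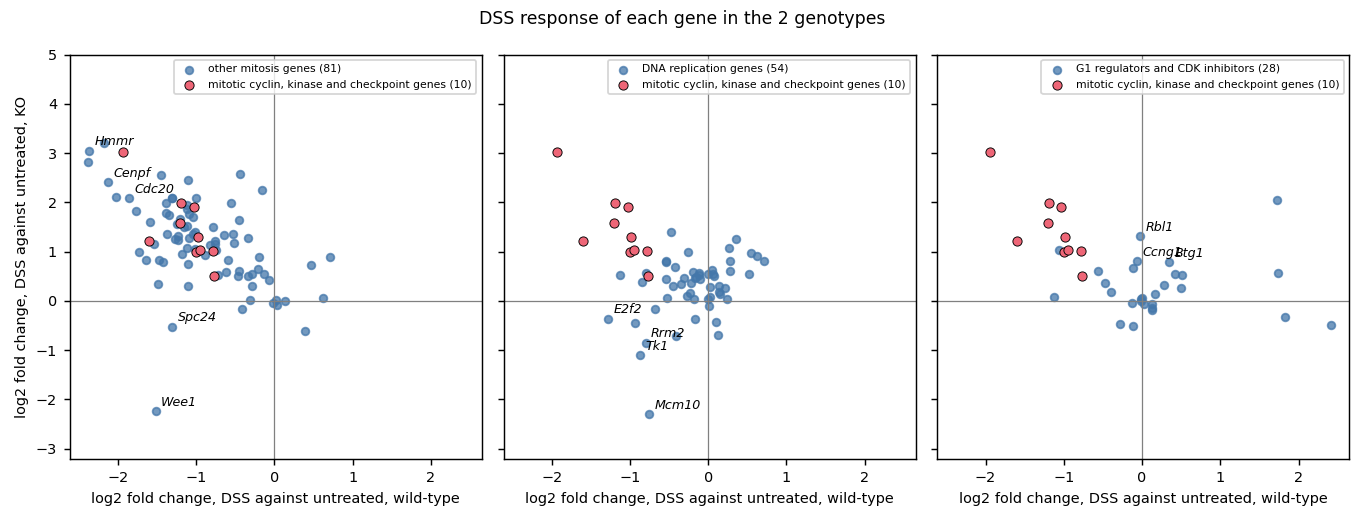
Log2 fold change with DSS in wild-type mice (horizontal) against that in RelaΔhepStat3Δhep (KO) mice (vertical), with the 10 mitotic genes in red and, in blue, 81 further mitosis genes, 54 DNA replication genes and 28 G1 regulators and CDK inhibitors. The 10 red points all lie in the upper left quadrant, most mitosis genes lie there too, and Wee1 and Mcm10 lie at the bottom left.

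Genes of DNA replication, which act in S phase before mitosis, had medians closer to 0 than the mitosis genes. Of 54 tested, 1 was called in wild-type mice given DSS, E2f2, an activator of S phase genes (−1.29 ± 0.24, adjusted p = 0.0279), with a list median of −0.16, where 0.232% of all genes were called lower. In RelaΔhepStat3Δhep mice given DSS 43 had positive fold changes (median 0.42), but no gene of the list was called higher and 3 fell, against 4.57% and 2.46% of all genes. These were Mcm10, which helps to start replication forks (−2.30 ± 0.37, adjusted p = 0.00634), Tk1, thymidine kinase (−1.10 ± 0.23, adjusted p = 0.0154), and Rrm2, a subunit of ribonucleotide reductase (−0.85 ± 0.23, adjusted p = 0.0438). Mcm10 was at 50.2, 29.9 and 17.8 CPM in untreated and at 7.03, 7.14 and 5.65 CPM in DSS-treated RelaΔhepStat3Δhep livers, which did not overlap. No replication gene was called in the genotype comparisons or in the interaction, at medians of −0.42, 0.08 and 0.50 and with 17, 5 and 12 of 54 genes at an unadjusted p under 0.05, against 11.7%, 14.3% and 16.3% of all genes. Without untreated wild-type liver 3 the medians were −0.04 in the wild-type DSS response, −0.31 between untreated livers and 0.35 in the interaction. In that fit 2 genes of the list were called lower in RelaΔhepStat3Δhep mice given DSS, and 1 in wild-type mice.

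Of 28 G1 regulators and CDK inhibitors tested, none was called in wild-type mice given DSS, with 8 of 28 at an unadjusted p under 0.05 (14.5% of all genes) and a median of 0.01. In RelaΔhepStat3Δhep mice given DSS 3 rose, the retinoblastoma relative Rbl1 (1.32 ± 0.28, adjusted p = 0.0166), cyclin G1 (Ccng1, 0.80 ± 0.20, adjusted p = 0.0313) and the antiproliferative gene Btg1 (0.79 ± 0.18, adjusted p = 0.0207), with a median of 0.17 and against 4.57% of all genes called higher. None was called in the remaining comparisons, with medians of 0.03 untreated, 0.14 after DSS and 0.05 for the interaction and 5, 7 and 6 of 28 genes at an unadjusted p under 0.05, against the same shares of all genes. Without untreated wild-type liver 3 the medians were 0.06 in the wild-type DSS response, 0.005 between untreated livers and −0.04 in the interaction.

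Markers of other liver cells moved with some of these groups. In whole liver, fewer cells of a type and less RNA per cell cannot be told apart. The 8 tested B cell and plasma cell markers had negative fold changes in wild-type mice given DSS and in untreated RelaΔhepStat3Δhep livers, and positive ones in RelaΔhepStat3Δhep mice given DSS, the signs that the members also had. They were positive after DSS between the genotypes (8 of 8, median 0.76, 2 at an unadjusted p under 0.05) and in the interaction (8 of 8, median 2.18, all 8 at an unadjusted p under 0.05) too, as the members were. Over all genes 14.3% and 16.3% had an unadjusted p under 0.05 there, in either direction. Of the values of the 8 markers 1 was called, Pax5 in RelaΔhepStat3Δhep mice given DSS (1.74 ± 0.43, edgeR adjusted p = 0.0300), where 4.57% of all genes were called higher. Without Sdc1, which hepatocytes also express, the list summed to 8.34 to 11.4 CPM in untreated and 3.99 to 6.77 CPM in DSS-treated wild-type livers, and to 4.21 to 5.45 and 5.45 to 16.3 CPM in the RelaΔhepStat3Δhep livers. Of the 9 B cell markers with a row, 1 was at 0 in every liver of a group in 3 of the 4 groups. The median correlation of the 8 markers with the members was 0.634 over the 12 libraries.

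T and NK cell markers summed to 7.77 to 10.2 CPM in untreated and 14.1 to 26.4 CPM in DSS-treated RelaΔhepStat3Δhep livers, with 11 of 12 positive and 1 called (4.57% of all genes were called higher). In untreated and DSS-treated wild-type livers they summed to 7.83 to 18.9 and 4.16 to 13.9 CPM, with 11 of 12 negative (median −0.61) and none called. Between untreated livers 11 of 12 were lower in RelaΔhepStat3Δhep mice (median −0.41), with none called. In these 2 comparisons 4 and 1 had an unadjusted p under 0.05, against 14.5% and 11.7% of all genes. The T and NK cell markers were positive after DSS between the genotypes (12 of 12, median 1.32, 8 at an unadjusted p under 0.05) and in the interaction (12 of 12, median 1.80, 7 at an unadjusted p under 0.05), with none called. Over all genes 14.3% and 16.3% had an unadjusted p under 0.05 there, in either direction. Kupffer cell and macrophage markers summed to 414 to 456 CPM in untreated and 796 to 1233 CPM in DSS-treated RelaΔhepStat3Δhep livers, with all 11 positive and 10 called (4.57% of all genes were called higher). In untreated and DSS-treated wild-type livers they summed to 334 to 670 and 532 to 1127 CPM, with 10 of 11 positive and 1 called higher. In that comparison 80 of all 17652 genes were called higher. Neutrophil markers also had positive fold changes in both genotypes (9 of 9 tested), from sums of 1.79 to 7.46 CPM untreated, where 5 of 13 markers were at 0 in all untreated RelaΔhepStat3Δhep livers. After DSS they summed to 10.3 to 165.6 CPM in wild-type and 11.7 to 29.7 CPM in RelaΔhepStat3Δhep livers. In each genotype 6 had an unadjusted p under 0.05 (14.5% and 24.1% of all genes), and 1 was called higher, in RelaΔhepStat3Δhep mice (4.57% of all genes were called higher). Erythroid markers summed to 56.7 to 160.0 CPM in untreated and 22.2 to 55.0 CPM in DSS-treated RelaΔhepStat3Δhep livers. Of the 10 tested there, 4 had positive and 6 negative fold changes. The 1 called was Alas2, which was lower (−2.68 ± 0.59, edgeR adjusted p = 0.027), as were 2.46% of all genes. In wild-type livers they summed to 91.9 to 140.0 CPM untreated and 59.9 to 96.2 CPM after DSS, with none called. Endothelial markers had the signs of the members in the wild-type DSS response and the untreated genotype comparison (8 of 8 negative, medians −0.34 and −0.19), after DSS and in the interaction (8 of 8 positive, medians 0.46 and 0.66), and in the RelaΔhepStat3Δhep DSS response for 6 of 8 (median 0.35), with none called and 3, 0, 4, 4 and 2 at an unadjusted p under 0.05. Over all genes the shares at such a p-value were 14.5%, 11.7%, 14.3%, 16.3% and 24.1% in the same order, in either direction. The endothelial markers summed to 399 to 462 and 224 to 463 CPM in untreated and DSS-treated wild-type livers, and to 369 to 401 and 376 to 529 CPM in the RelaΔhepStat3Δhep livers. Of the 8 stellate cell and fibroblast markers, Des (desmin) was called in the RelaΔhepStat3Δhep DSS response (1.98 ± 0.42, edgeR adjusted p = 0.0179), where 4.57% of all genes were called higher. In that comparison 5 of these markers were positive, and the list summed to 373 to 435 CPM untreated and 456 to 561 CPM after DSS. Of the 9 hepatocyte markers tested, Hnf4a was called lower in the RelaΔhepStat3Δhep DSS response (−0.70 ± 0.18, edgeR adjusted p = 0.0325), where 2.46% of all genes were called lower. Tat (−1.20 ± 0.43) was not called there. Alb, Apoa1 and Fgb had positive fold changes in that comparison and the other hepatocyte markers negative ones. No hepatocyte marker was called in the other comparisons. None of the 4 cholangiocyte markers tested was called by edgeR in any of the 5 comparisons, and 1 had an unadjusted p under 0.05, in wild-type mice given DSS (14.5% of all genes). The part of these cell types in the levels of the mitotic genes was not tested.

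**Figure D4:**
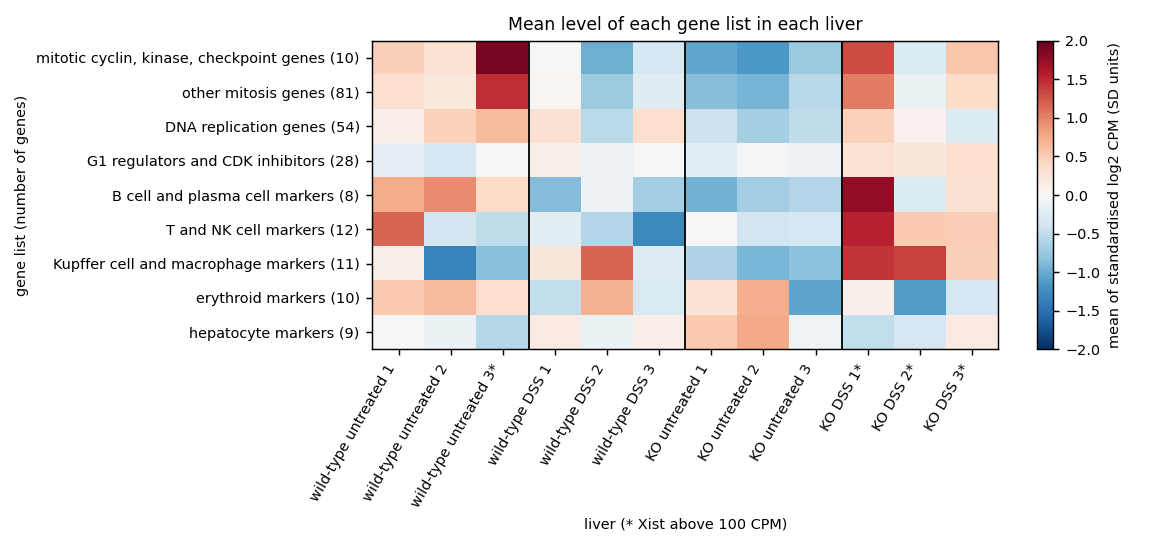
Mean over the genes of each list of the log2 CPM standardised across the 12 livers (colour, in SD units), with 1 column a liver, vertical lines between groups and an asterisk for Xist above 100 CPM. KO stands for RelaΔhepStat3Δhep. The top 2 rows share their pattern, from 1.90 in untreated wild-type liver 3 to −1.14 in untreated KO liver 2 for the 10 mitotic genes, and the macrophage row differs from them.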

How the data were processed

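Sequencing was paired-end, on whole-liver RNA after removal of rRNA. Trimming used fastp, alignment to mm9 HISAT2 and counting StringTie. The values are estimated counts per gene, which the authors deposited as whole numbers without normalization. The annotation behind the counts and the use of strand are not given in the sources used here. Gene names and positions came from GENCODE vM1 on mm9. Groups followed the sample labels, with 3 mice each. Counts were filtered with filterByExpr, scaled by TMM (factors 0.758 to 1.13) and tested with robust quasi-likelihood F tests in edgeR 4.0.16 (R 4.3.3) in 1 model of the 4 groups, with Benjamini-Hochberg adjustment over all genes tested and a threshold of 0.05. The script was tested on simulated data. Log2 CPM used a pseudocount of 0.5. Transcript copies were searched for with blastn at 95% identity over 500 bases. DESeq2 1.42.0, limma-voom (limma 3.58.1), other scaling, no filter, a sex term, a replicate block, only the groups compared and leaving out each liver were tried as alternatives. The members and gene lists were chosen with earlier results of these data known. Named were all members, up to 4 called genes of a list with the largest change in a comparison, and the 10 genes most like the members.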

Additional observations from a re-analysis of the deposited data

Results flagged for a closer look

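For 7 of the genes described above edgeR's interaction term, adjusted over all genes tested, was past the threshold, where 0.244% of all genes were called higher. The log2 difference between the DSS responses, RelaΔhepStat3Δhep minus wild-type, was 2.79 for Cdk1 and 4.96 for Ccnb1 among the members, and 3.95 for Cdc20, 4.53 for Cenpf, 3.00 for Kif20b, 3.16 for Racgap1 and 3.37 for Ckap2l among the further mitosis genes. In each of the 7 the wild-type response was negative and the RelaΔhepStat3Δhep response positive. The members and the list were chosen with results of these livers known, so these values are a description. With the sex term 0 members and 0 further mitosis genes were called in the interaction. Without untreated wild-type liver 3 Cdk1 stayed called (2.52, adjusted p = 0.0412), and the other 6 did not, at log2 differences from 2.51 (Kif20b) to 4.04 (Ccnb1) and edgeR adjusted p-values from 0.0523 to 0.110. Over all genes that fit called 30 in the interaction, in either direction.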

How the results depend on the processing

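All 10 members kept the direction of their fold change in all 5 comparisons under every setting tried except a sex term (890 of 890 values). With that term, coded from Xist above 100 CPM and resting on untreated wild-type liver 3, the median log2 fold change of the members was −0.52 (wild-type DSS response), 0.34 (RelaΔhepStat3Δhep DSS response), −1.09 (genotype untreated), −0.35 (genotype after DSS) and 0.82 (interaction), and 0 members and 0 of all genes were called higher in the RelaΔhepStat3Δhep DSS response and the interaction. It turned the RelaΔhepStat3Δhep DSS response of Ccnb2 (−0.40), Aurka (−0.38) and Kif11 (−0.15), and the genotype difference after DSS of Ccna2 (−0.37), Ccnb1 (−0.60), Ccnb2 (−0.79), Bub1 (−0.32), Aurka (−0.68), Plk1 (−0.33) and Kif11 (−0.46). DESeq2's Wald test called 3, 5, 8 and 9 members in the wild-type DSS response, RelaΔhepStat3Δhep DSS response, genotype untreated and interaction, and 2.31%, 8.23%, 1.32% and 2.51% of all genes in the members' direction. Limma-voom called 1 in the genotype difference untreated (0.30% of all genes) and 1 in the interaction (0.249%), where its median was 2.02. Without the filter 1 member was called between untreated livers (0.0284%), and in a fit of only the groups compared 1 there (0.182%) and 5 in the RelaΔhepStat3Δhep DSS response (6.29%). The cause of these differences was not tested.

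Leaving out each liver in turn gave 0 to 5 called members in the RelaΔhepStat3Δhep DSS response (5 without DSS-treated wild-type liver 2, which is outside that comparison), 0 to 2 in the genotype difference untreated and 0 to 3 in the interaction, where 0 were called without untreated RelaΔhepStat3Δhep liver 1 or 2. Over all genes the share called in the same direction was 0.837% to 5.72%, 0.0109% to 0.115% and 0.0547% to 0.602%. The medians ran from −1.23 to −0.52, from −1.87 to −1.09 and from 1.94 to 2.79 for the wild-type DSS response, the genotype difference untreated and the interaction, with the value nearest 0 each time without untreated wild-type liver 3, and from 0.94 to 1.5 and from 0.52 to 1.07 for the RelaΔhepStat3Δhep DSS response and the genotype difference after DSS, with the lowest without DSS-treated RelaΔhepStat3Δhep liver 1.

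A replicate block gave 5 called members in the RelaΔhepStat3Δhep DSS response (4.51% of all genes) and 2 in the genotype difference untreated (0.125%). Same-numbered livers of 2 groups had correlated deviations from −0.073 to 0.206 (5 of 18 pairs over 0.1), and in 12 of 36 cases a liver correlated best with its own number, so the numbers do not pair the mice. Of the 10 genes most like the members, 6 were shared with a Spearman ranking and 6 with one on deviations from group means. The members had 14 to 756 counts a library, with the lowest in Plk1 (14), Bub1 (16) and Ccnb1 (21).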
